A study of Saccharomyces cerevisiae with 40 samples.

Results

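Ribosome footprints of budding yeast cells lacking DHH1 (dhh1Δ) were compared with those of wild type (WT) cells, gene by gene. Each strain had 3 columns of counts, and the 5512 genes with at least 15 reads over these 6 columns, of 6613 genes in the table, entered the comparison. The series measured steady-state RNA and RNA decay in WT and def1Δ cells, and ribosome profiling in WT, def1Δ and dhh1Δ cells. Ribosome profiling sequences the short mRNA fragments that ribosomes shield from a nuclease, so that the reads over a gene count the ribosomes on its mRNA. The labels give both strains as Saccharomyces cerevisiae W303, a common laboratory background, with the genotype DHH1 knockout or wild type and no treatment. Before harvest the log-phase cultures, in rich YPD medium, received cycloheximide at 50 µg/ml to hold ribosomes in place, and lysates of frozen cells were digested with RNase I at 300 µg/ml. Footprints came from the monosome fraction of a sucrose gradient. The study's strain list has W303 as MAT alpha with auxotrophic alleles that include his3, and the allele that removes DHH1 is not given in the sources used here.

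The 3 footprint columns of a strain were told apart by barcodes within a pooled library. The barcode table gives replicates 1 to 3 of each strain the same 3 barcodes. Whether the columns come from separate cultures is not known, so p-values measure only the spread between barcoded columns. Because each strain is a pooled library of its own, a difference between libraries and a difference between strains cannot be told apart. By the sample titles, WT footprints have sequencing runs 1 to 3 and dhh1Δ footprints run 1 only. Strain and number of runs therefore cannot be told apart either. Input RNA of the same experiment has 3 labelled samples per strain and stands beside the footprints here. Footprint totals were 1984692, 2592988 and 4600869 counts in dhh1Δ, against 5169405, 8635312 and 8015381 in WT. Columns of a strain differed by more than sampling noise, which gives a chi-square per gene of about 1, with 4.93 to 16.1 in dhh1Δ and 21.8 to 36.6 in WT.

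Dhh1 is a DEAD-box RNA helicase of the cytoplasm. It promotes removal of the mRNA cap, the step that opens most yeast mRNAs to degradation from the front end, and it can hold back translation. It is found in processing bodies together with the decapping enzyme and its activators, and it binds the Ccr4-Not complex that shortens poly(A) tails. A footprint count changes when the amount of an mRNA changes, when its ribosome load changes, or both, which is why RNA changes are given beside the footprint changes of the groups and of the leading genes.

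Levels are given as normalized CPM, which are counts relative to the library total, as CPM, after scaling by the TMM factors of edgeR. They compare a gene between columns and, without a correction for length, do not rank genes. Changes are log2 fold changes of dhh1Δ over WT with their standard error (SE), and adjusted p is the Benjamini-Hochberg value of edgeR's quasi-likelihood test over all genes tested. A gene was called when its adjusted p was under 0.01 and its change exceeded 2-fold. The lists of genes used below were written with earlier results of these data known, so their counts are descriptions. Over all genes tested 7.42% were called higher and 2.01% lower, and each list count of calls below is to be read against these shares. They are no background for the list counts at an unadjusted p under 0.05, which more genes pass. Already at an adjusted p under 0.05 with no fold limit, 985 of the 5512 genes were higher and 835 lower. The share of all genes at the unadjusted cutoff is not given here, so those counts are descriptions. A single member each of the glycolysis, hexose transport, cell wall and pheromone response lists had too few reads to be tested.

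The deleted gene was read first. DHH1 (YDL160C, chromosome IV, 170410 to 171930, minus strand, R64 assembly) had 27.4, 28.2 and 24.5 normalized footprint CPM in the dhh1Δ columns, against 230.6, 233.2 and 233.4 in the WT columns. The groups did not overlap, and the dhh1Δ mean was 11.5% of the WT mean. The footprint change was -3.13 (SE 0.15, adjusted p = 6.15e-08). Input RNA over the gene had 79.7, 65.4 and 85.8 normalized CPM in dhh1Δ, against 313.1, 262.9 and 222.4 in WT, a change of -1.79 (adjusted p = 9.18e-05). Reads over DHH1 were therefore fewer but present in dhh1Δ, with 62, 76 and 113 footprint counts, and which part of the gene they cover was not tested. STE7, a kinase of the pheromone pathway whose coding region starts 550 bases from DHH1, had 12.4, 11.9 and 13.7 normalized footprint CPM in dhh1Δ, against 21.4, 29.8 and 30.1 in WT. It was called lower in footprints (-1.10, adjusted p = 0.00189), while its input RNA change was 0.89. ENT1, on the other side of DHH1 at 1331 bases, had a footprint change of 0.46 (adjusted p = 0.0321), and MHF2, which lies between them, had a change of -0.35 (adjusted p = 0.217).

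The columns also differed in mating type. Haploid yeast cells are of type a or alpha, and each type makes its own pheromone and the receptor for the other's. In a cells the a-specific genes are on. In alpha cells the repressor alpha2, with Mcm1, turns them off through an operator in their promoters, and alpha1 turns the alpha-specific genes on. All 5 alpha-cell markers were called higher in dhh1Δ and all 7 a-cell markers lower, where 7.42% of all genes tested were called higher and 2.01% lower. The a-specific genes are shown here by their operators, because they supply the 6 largest falls named in the comparison. The letters CATGTAA, an end of the operator, were searched on both strands within 500 bases before the start codon. They were found for 7 of 7 a-cell markers, for 1 of 5 alpha-cell markers and for 6.48% of 5433 nuclear genes with this window. The share was 15.3% of the 111 genes called lower, which include the a-cell markers, and 7.43% of the 404 called higher. A match is a description of letters and not a measured site. Each line gives 40 bases of the RefSeq R64 genome, 5′ to 3′ on the strand that carries the match first, with CATGTAA or its reverse complement in capitals.
MFA1: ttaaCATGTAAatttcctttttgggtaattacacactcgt
BAR1: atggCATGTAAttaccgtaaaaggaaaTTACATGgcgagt
STE2: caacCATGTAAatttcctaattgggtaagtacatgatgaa
AGA2: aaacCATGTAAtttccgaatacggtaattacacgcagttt
ASG7: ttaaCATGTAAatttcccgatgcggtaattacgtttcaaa
STE6: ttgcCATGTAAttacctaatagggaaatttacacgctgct
MFA2: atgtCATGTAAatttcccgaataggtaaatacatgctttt
These windows are, in the same order, chrIV:1384937-1384976 (minus strand), chrIX:322074-322113 (plus strand), chrVI:82347-82386 (plus strand), chrVII:437096-437135 (minus strand), chrX:101901-101940 (plus strand), chrXI:46472-46511 (minus strand) and chrXIV:352158-352197 (minus strand). In BAR1 the window holds the letters on both strands, facing each other.

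The sum over the alpha-cell markers was 2319 to 2673 normalized CPM in the dhh1Δ columns and 21.5 to 25.1 in the WT columns. The sum over the a-cell markers was 9.97 to 17.0 in dhh1Δ and 989.4 to 1058 in WT. In bulk samples, fewer cells of a type and less RNA per cell cannot be told apart. MF(ALPHA)1, which encodes the main alpha pheromone, had 1351, 1470 and 1632 normalized CPM in dhh1Δ, against 2.94, 1.66 and 4.11 in WT (log2 change 8.99, SE 0.28, adjusted p = 3.29e-09), with an RNA change of 9.89. Its relative MF(ALPHA)2 had 235.9, 277.0 and 328.7 in dhh1Δ, against 0, 0.256 and 0.663 in WT (9.59, SE 0.36). With only 7 WT counts, the ratio of MF(ALPHA)2 was 853 (95% exact interval 414 to 2125, counting error only). The 2 pheromone genes share sequence, and how reads that match both were counted is not given in the sources used here. STE3, the receptor for a pheromone, had 130.3, 108.5 and 106.7 normalized CPM in dhh1Δ, against 0.392, 0.512 and 0.796 in WT (7.56, SE 0.24, adjusted p = 3.29e-09). SAG1, the alpha agglutinin, had 291.1, 282.2 and 303.8 in dhh1Δ, against 2.55, 3.33 and 2.52 in WT (6.68, SE 0.19, adjusted p = 3.29e-09).

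The a-cell genes lay on the other side without overlap. STE2, the receptor for alpha pheromone, had 2.65, 3.33 and 1.74 normalized CPM in dhh1Δ, against 304.5, 253.5 and 286.9 in WT (-6.84, SE 0.23, adjusted p = 6.89e-09). BAR1, the protease that degrades alpha pheromone, had 4.86, 4.45 and 1.52 in dhh1Δ, against 280.0, 257.2 and 308.6 in WT (-6.43, SE 0.29, adjusted p = 4.65e-08). MFA2, an a pheromone gene, had 0, 3.33 and 0.867 in dhh1Δ, against 187.2, 244.0 and 201.2 in WT (-7.24, SE 0.41, adjusted p = 2.2e-07). The other pheromone gene MFA1 fell by 5.36 on the log2 scale, the a pheromone exporter STE6 by 5.88 and the agglutinin subunit AGA2 by 3.73. The RNA changes were -6.45 for STE2, -5.42 for BAR1 and -7.57 for MFA2. In dhh1Δ, STE2 was at 0.914% and BAR1 at 1.28% of the WT mean, against the 11.5% left over DHH1. HMRA1, the a1 gene as the table names it, was chosen after its values were seen and had 0.442, 0.741 and 0 normalized CPM in dhh1Δ, against 24.1, 26.8 and 20.0 in WT.

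Of 18 genes of the pheromone response, most of which haploid cells of either type use, 1 was called higher (PRM5) and none lower, with a median of 0.43 and changes from -0.82 for SST2 to 1.67 for PRM5; without WT replicate 3, 2 were called higher. Outside that list, STE7 and HO, which both types also use, were called lower. By the marker lists, the WT columns carry the marker genes of a cells, which goes against MAT alpha in the strain list, and the dhh1Δ columns those of alpha cells. The deletion and the mating type cannot be told apart in the footprint or the RNA results, and in the footprints neither can be told apart from the pooled library. The def1Δ columns of the same experiment, in CPM of each column's total, had 198.9, 215.9 and 199.2 over BAR1 and 0.188, 0.159 and 1.36 over MF(ALPHA)1. HIS3, an auxotrophic marker of W303, had 84.4, 90.7 and 91.9 normalized CPM in dhh1Δ, against 6.47, 12.2 and 8.76 in WT (3.26, SE 0.20, adjusted p = 5.25e-07), and it was the only called gene of 6 auxotrophic markers.

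**Figure D1:**
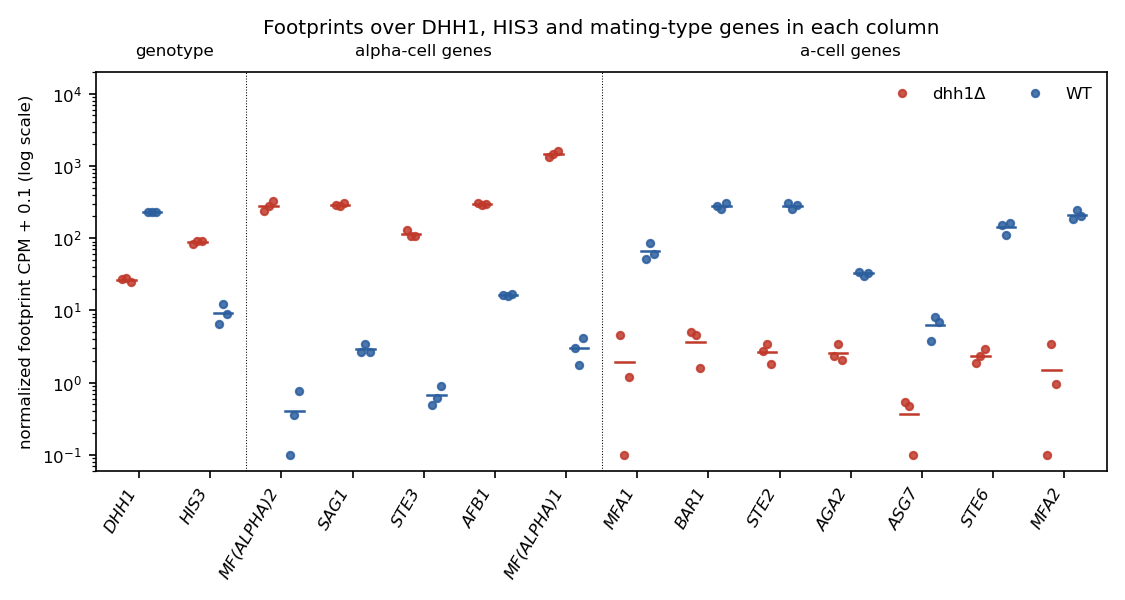
Normalized footprint CPM plus 0.1 on a log axis for DHH1, HIS3, 5 alpha-cell and 7 a-cell genes. Each point is a column (3 dhh1Δ left, 3 WT right of each gene) and each bar the mean; dhh1Δ columns are above WT for the alpha-cell genes and below for the a-cell genes, with DHH1 at 11.5% of WT.

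Among the genes called, more rose than fell. In dhh1Δ 409 genes were called higher and 111 lower, so that 78.7% of the 520 calls were rises. The median change of the 5512 genes was -0.01. The columns of the strains did not overlap for 408 of the 409 and for all 111. The call itself selects genes whose columns differ, so this adds no separate support. The share without overlap over all genes tested is not given here. At an adjusted p under 0.05 with no fold limit, 985 genes were higher and 835 lower (54.1% higher). Of the called genes, 190 genes rose and 20 fell by more than 4-fold, and 43 rose and 8 fell by more than 16-fold. With the barcode number as a block, 471 genes were called higher and 124 lower, which included all 409 and all 111. By chromosome the median footprint change ran from -0.07 on chromosome X to 0.12 on chromosome III among the nuclear chromosomes.

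**Figure D2:**
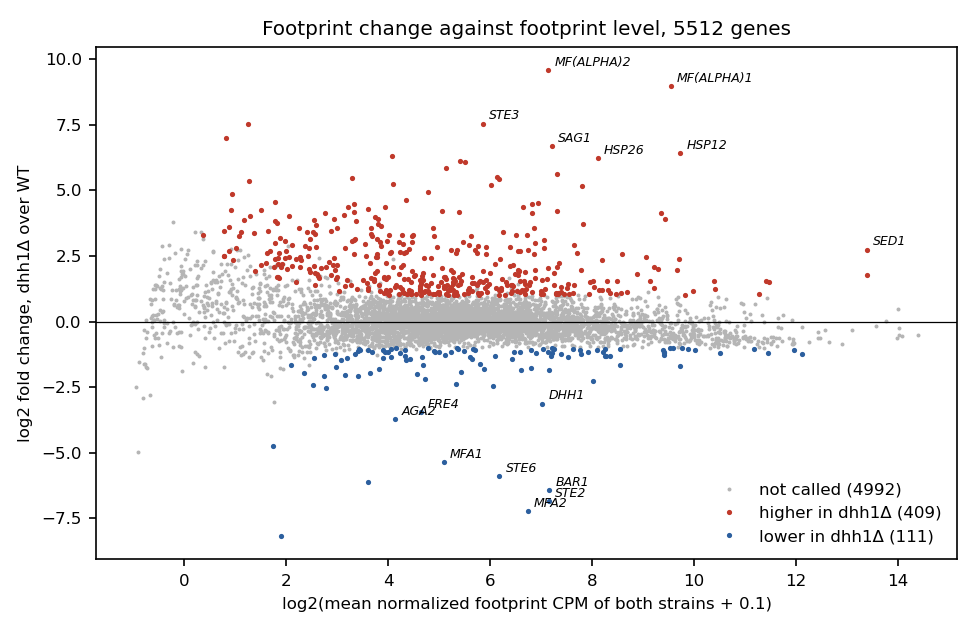
Footprint log2 fold change of dhh1Δ over WT against the log2 of the mean normalized CPM plus 0.1, 1 point per gene (5512 genes). Red marks the 409 genes called higher in dhh1Δ and blue the 111 called lower; the largest rises and falls include the mating-type genes, HSP12 and HSP26.

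Footprint and RNA changes went the same way for most called genes. Input RNA had 388 genes higher (6.06%) and 164 lower (2.56%) of 6401 tested. Of the 409 genes with more footprints, 298 were also called higher in RNA and 388 had an RNA change above 0. Of the 111 with fewer, 72 were also called lower in RNA, and 108 of the 110 with an RNA test had an RNA change below 0. The median footprint change of the rises was 1.88 and their median RNA change 1.46. For the falls the medians were -1.26 in footprints and -1.13 in RNA. Across the 5483 genes with both values, Pearson's r of the changes was 0.813, a description over genes of the same cells, which are not independent replicates.

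The stress genes held the largest rises outside mating type. Msn2 and Msn4 are transcription factors that turn on a shared set of genes under heat, starvation and other stress, through the stress response element AGGGG in their promoters. Of 17 genes listed as their targets, 16 were called higher (7.42% of all genes were) and none lower, with a median change of 3.30, against -0.01 over all genes. The median RNA change of the same genes was 2.06. The promoter of HSP12 is shown because this gene, which encodes a small membrane-associated heat shock protein, had the largest rise of the list and carries 5 copies of the element. The line gives chrVI:106816-107095 (plus strand) of the RefSeq R64 genome, from 440 to 161 bases before the start codon, with AGGGG or its reverse complement CCCCT in capitals.
HSP12: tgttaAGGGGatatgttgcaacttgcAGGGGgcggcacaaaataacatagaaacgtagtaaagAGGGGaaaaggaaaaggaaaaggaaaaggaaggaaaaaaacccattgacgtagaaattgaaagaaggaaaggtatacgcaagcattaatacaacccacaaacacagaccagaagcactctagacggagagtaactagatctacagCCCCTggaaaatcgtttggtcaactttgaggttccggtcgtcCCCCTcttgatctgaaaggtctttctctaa
AGGGG occurred on either strand in the 500 bases before the start codon of 17 of the 17 listed genes, of 60.2% of the 404 genes called higher that have such a window, of 25.2% of the 111 called lower and of 34.5% of all 5433. A match is a description of letters and not a measured site, and the target list was itself made from genes known to carry the element.

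HSP12 had 1295, 1831 and 1905 normalized CPM in dhh1Δ, against 25.3, 13.4 and 19.9 in WT (log2 change 6.44, SE 0.27, adjusted p = 2.68e-08). HSP26, a small heat shock chaperone that holds unfolded proteins, had 596.7, 523.3 and 507.8 in dhh1Δ, against 9.22, 5.12 and 7.43 in WT (6.24, SE 0.22, adjusted p = 6.98e-09). DDR2, a stress gene first found through DNA damage, had 129.0, 141.9 and 150.3 in dhh1Δ, against 5.29, 3.33 and 1.59 in WT (5.42, SE 0.29, adjusted p = 1.43e-07). Every dhh1Δ column was above every WT column for these 3 genes, as for 408 of the 409 genes called higher. Their RNA changes were 5.87 for HSP12, 5.60 for HSP26 and 4.88 for DDR2. GRE3, an aldose reductase, was the only listed gene not called, with a change of 1.00 and an adjusted p of 0.00794, just under the 2-fold limit. HSP104, a called stress gene which pulls apart protein aggregates, had 1855, 2254 and 1838 normalized CPM in dhh1Δ, against 731.1, 881.1 and 437.7 in WT (1.54, adjusted p = 0.000418); HSP104 was named after its values were seen. The def1Δ columns had 356.3, 545.2 and 644.0 CPM of their totals over HSP12 and 145.2, 191.9 and 167.6 over HSP26, and any comparison of def1Δ with WT shares the WT columns used here.

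Other genes among the 12 largest rises belong to several functions. HSP30, a stress protein of the plasma membrane, had 124.1, 76.7 and 47.9 normalized CPM in dhh1Δ, against 1.57, 1.02 and 0.929 in WT (6.14, SE 0.41), with more spread among the dhh1Δ columns than the others. GRE1, a hydrophilin induced by osmotic stress, changed by 6.11 (SE 0.26, adjusted p = 2.9e-08), with 82.6, 105.2 and 81.5 in dhh1Δ, against 1.77, 1.54 and 0.663 in WT. EGO4 had 314.9, 317.8 and 298.3 in dhh1Δ, against 9.22, 6.79 and 3.05 in WT (5.65, SE 0.30). INO1, which makes inositol phosphate for phospholipid synthesis, had 145.8, 133.7 and 129.2 in dhh1Δ, against 2.16, 1.66 and 4.91 in WT (5.51, SE 0.29, adjusted p = 1.4e-07). OPI3 (1.92) and CHO1 (1.33), which act on the route to phosphatidylcholine and phosphatidylserine, were the other called rises among 29 sterol and lipid genes. Of the 29, 3 were called higher (7.42% of all genes were) and 1 lower (2.01%), and the median was -0.36.

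**Figure D3:**
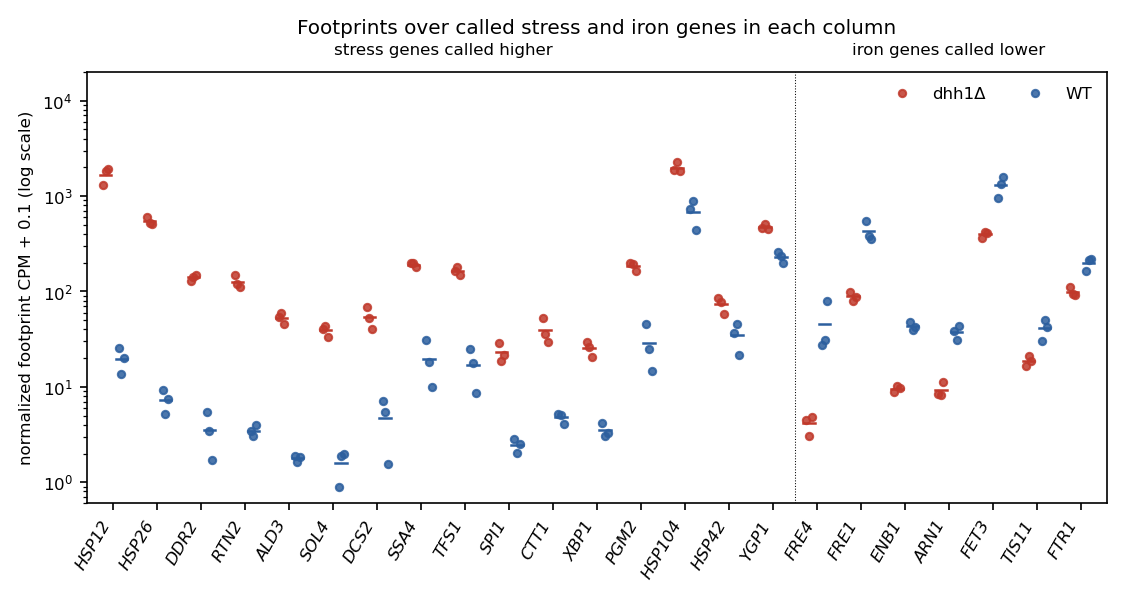
Normalized footprint CPM plus 0.1 on a log axis for the 16 called stress genes and the 7 called iron genes, in order of their change. Points are columns (dhh1Δ left, WT right of each gene) and bars are means. The stress genes were called higher and the iron genes lower, and their columns did not overlap. The same held for 408 of the 409 genes called higher and for all 111 called lower.

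Genes of storage carbohydrate were among the rises, and those of sugar use were called in part. Of 18 trehalose and glycogen genes, 10 were called higher (7.42% of all genes were) and none lower. Their median was 1.51 in footprints and 1.24 in RNA. GPH1, which breaks down glycogen, had 452.3, 444.5 and 353.0 normalized CPM in dhh1Δ, against 42.6, 31.8 and 20.6 in WT (3.73, SE 0.25, adjusted p = 9.15e-07). GAC1, a regulatory subunit of the phosphatase that activates glycogen synthase, changed by 3.57 and the debranching enzyme GDB1 by 2.84, with RNA changes of 3.97 for GPH1, 4.52 for GAC1 and 1.95 for GDB1. Among 14 hexose transport genes 7 were called higher (7.42% of all genes were) and 2 lower (2.01%), with a median of 1.16. HXT5, a transporter made in slowly growing cells, had 17.2, 19.3 and 20.0 in dhh1Δ, against 0.588, 1.28 and 1.06 in WT (4.18, SE 0.30), and the high-affinity transporter HXT7, which shares sequence with a neighbouring copy, changed by 3.29. The transporters called lower were HXT1 (-1.84, RNA -1.68) and HXT3 (-1.05, RNA -1.06 on the log2 scale), which carry glucose when it is plentiful; both were named after their values were seen. In glycolysis 5 of 23 genes were called higher, against 7.42% of all genes. The kinases GLK1 (1.55) and HXK1 (1.54) and the enolase ENO1 (1.49) led. The median was 0.00 and turned sign in 6 of the alternative settings. The summed level of the glycolysis list was lower in dhh1Δ, with 122700 to 129900 normalized CPM, against 150200 to 164200 in WT. HXK1 had 624.5, 456.7 and 316.3 normalized CPM in dhh1Δ, against 209.6, 166.7 and 105.5 in WT. Without dhh1Δ replicate 2 or without WT replicate 2, 4 hexose transport genes were called higher, and without dhh1Δ replicate 1 or 2 only 1 was called lower.

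Genes of the respiratory chain mostly had changes above 0. Of 41 genes of the respiratory chain and ATP synthase 38 had a change above 0, and the median was 0.39. Of the 41, 4 were called higher, where 7.42% of all genes tested were, and none lower. This count was 1 without dhh1Δ replicate 2 or WT replicate 3, 2 without WT replicate 1 and 7 without WT replicate 2. CYC7, the cytochrome c isoform of low oxygen, was the largest with 78.6, 72.6 and 55.3 normalized CPM in dhh1Δ, against 9.80, 14.3 and 9.29 in WT (2.60, SE 0.21, adjusted p = 4.64e-06). Of 21 TCA and glyoxylate cycle genes 6 were called higher (7.42% of all genes were), with a median of 0.51. Among them were IDP2 (2.61), MLS1 (2.02) and CIT3 (1.67), all at low counts. Without dhh1Δ replicate 2, WT replicate 2 or WT replicate 3 the TCA count was 3. None of 64 mitochondrial ribosomal protein genes was called (35 were higher at an unadjusted p under 0.05 in edgeR), where 59 had a change above 0 and the median was 0.42 in footprints and 0.43 in RNA. Of 32 autophagy genes 5 were called higher (7.42% of all genes were) and none lower. ATG8, the ubiquitin-like protein of the autophagosome membrane, had 71.1, 59.6 and 51.4 in dhh1Δ, against 12.7, 19.0 and 17.3 in WT (1.87, SE 0.19), and ATG41 changed by 2.80 and the mitophagy receptor ATG32 by 1.58.

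The called rises with the most footprint counts, HSP150 and SED1, were cell wall genes, and HSP150 was named after its values were seen. Of 30 genes of the wall 12 were called higher (7.42% of all genes were) and none lower. The wall genes had a median of 1.03 in footprints and 0.33 in RNA. Their summed level was 67540 to 92180 normalized CPM in dhh1Δ and 34280 to 39180 in WT. SED1, an abundant structural glycoprotein of the wall, had 14070, 20120 and 21660 in dhh1Δ, against 2482, 3098 and 2742 in WT (2.75, SE 0.19, adjusted p = 1.19e-06). PIR3, a wall protein with internal repeats, had 865.7, 1575 and 1417 in dhh1Δ, against 48.0, 111.8 and 92.2 in WT (3.93, SE 0.32). GSC2, the glucan synthase subunit induced under wall stress, had 379.8, 337.8 and 357.1 in dhh1Δ, against 59.2, 58.0 and 57.7 in WT (2.62, SE 0.14, adjusted p = 1.3e-07). The RNA changes were 1.93 for SED1, which was not called in RNA (adjusted p = 0.0152), 4.33 for PIR3 and 2.08 for GSC2. PRM5, a reporter of wall stress signalling and the only call among 18 genes of the pheromone response list, changed by 1.67.

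Of 23 nitrogen catabolism genes 10 were called higher (7.42% of all genes were) and 2 lower (2.01%). The 23 genes had a median of 1.03 in footprints and 0.52 in RNA. These genes serve the uptake and use of poor nitrogen sources and are held low on good ones. DAL5, the allantoate permease, had 56.5, 58.9 and 90.4 normalized CPM in dhh1Δ, against 1.18, 1.41 and 0.929 in WT (5.86, SE 0.28, adjusted p = 6.65e-08), while its input RNA changed by 1.77. DAL80, a repressor of the same regulon, had 28.7, 31.5 and 38.2 in dhh1Δ, against 1.96, 5.25 and 4.38 in WT (3.04, SE 0.28). The urea permease DUR3 rested on 31 counts in dhh1Δ and 5 in WT. Without dhh1Δ replicate 2, and likewise at equal depth in all columns, 7 genes of the list were called higher and 1 lower.

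Genes of iron uptake fell or did not pass the call. Aft1, the iron-responsive activator, turns these genes on when iron is short, and the core of its binding site reads TGCACCC. None of 20 genes was called higher and 7 were called lower (2.01% of all genes were), with a median of -0.66 in footprints and -0.81 in RNA. TGCACCC occurred on either strand within 500 bases before the start codon of 6 of these 7 and of 16 of the 20. The share was 9.91% of the 111 genes called lower (these 7 among them), 1.24% of the 404 called higher and 2.32% of all 5433. A match is a description of letters and not a measured site. The list is of genes that Aft1 turns on, so its share is no separate support. The windows of the 6 are printed to show the shared letters, in capitals, within 31 bases of the RefSeq R64 genome, 5′ to 3′ on the strand of the match.
FTR1: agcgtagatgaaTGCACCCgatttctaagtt
ARN1: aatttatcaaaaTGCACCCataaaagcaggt
TIS11: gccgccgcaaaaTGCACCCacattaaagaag
FET3: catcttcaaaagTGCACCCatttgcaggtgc
FRE4: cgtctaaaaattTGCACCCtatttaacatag
ENB1: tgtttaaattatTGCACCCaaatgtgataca
Their positions are, in the same order, chrV:461897-461927 (minus strand), chrVIII:21213-21243 (minus strand), chrXII:416889-416919 (minus strand), chrXIII:388559-388589 (plus strand), chrXIV:739502-739532 (plus strand) and chrXV:21486-21516 (minus strand).

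FRE4, a ferric reductase, had 4.42, 2.96 and 4.77 normalized CPM in dhh1Δ, against 27.1, 31.1 and 79.1 in WT (-3.47, SE 0.46, adjusted p = 0.000216). FRE1, the main reductase of the cell surface and the called gene without TGCACCC in its window, had 98.9, 79.3 and 87.4 in dhh1Δ, against 545.7, 381.2 and 355.6 in WT (-2.27, SE 0.19, adjusted p = 5.66e-06). ENB1, a transporter of iron bound to enterobactin, had 8.83, 10.0 and 9.54 in dhh1Δ, against 47.7, 39.7 and 42.3 in WT (-2.18, SE 0.18, adjusted p = 4.78e-06). ARN1, another siderophore transporter, had 8.39, 8.15 and 11.1 in dhh1Δ, against 38.6, 30.9 and 43.1 in WT (-1.99, SE 0.21). FET3 and FTR1, the oxidase and permease of the high-affinity system, were both called lower (-1.70, adjusted p = 5.04e-05 for FET3, and adjusted p = 0.000755 for FTR1), as was TIS11, which degrades mRNAs of iron-using proteins (-1.13). The RNA changes were -3.45 for FRE4, -1.95 for FRE1 and -1.49 for ENB1. FRE1 in the def1Δ columns stood at 87.9, 80.6 and 108.2 CPM of their totals.

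Methionine and sulfate assimilation gave a similar count. None of 24 genes was called higher and 7 were called lower (2.01% of all genes were). The 24 genes had a median of -0.80 in footprints and -0.72 in RNA. MET2, which acetylates homoserine, had 19.0, 22.6 and 12.4 normalized CPM in dhh1Δ, against 83.9, 59.4 and 59.4 in WT (-1.94, SE 0.23, adjusted p = 9e-05). The sulfate permease SUL2 (-2.06) and the kinase MET14 (-1.62) had their highest values in WT replicate 1, at 28.6 and 136.1, and without this column 4 genes of the list were called. A further pair of genes completed the 12 largest falls. HO, the endonuclease of mating-type switching, had 26.9, 18.5 and 17.1 in dhh1Δ, against 92.0, 117.0 and 127.2 in WT (-2.45, SE 0.20, adjusted p = 5.84e-06). PHD1, a transcription factor of pseudohyphal growth, had 15.5, 16.7 and 8.24 in dhh1Δ, against 46.9, 68.9 and 84.0 in WT (-2.37, SE 0.28, adjusted p = 9e-05).

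A few genes of the translation machinery were called lower and none higher. Of 137 cytoplasmic ribosomal protein genes 134 had a change below 0, with a median of -0.65 in footprints and -0.75 in RNA. Of the 137, 4 were called lower, where 2.01% of all genes were, and none higher. RPL11A had 409.0, 395.9 and 487.6 normalized CPM in dhh1Δ, against 854.1, 1006 and 872.8 in WT (-1.08, SE 0.14, adjusted p = 0.000207). The summed level of these genes was 145400 to 188300 normalized CPM in dhh1Δ and 222500 to 308800 in WT, so they took the largest amount of footprints of any list. The number called lower was 10 with upper-quartile scaling, 11 without WT replicate 1, 8 without dhh1Δ replicate 3 and 1 without WT replicate 2. Among 14 elongation and termination factors 3 were called lower, where 2.01% of all genes were. They were EFT1 and EFT2, which encode the same elongation factor from near-identical genes (-1.35 and -1.15, uncertain where reads match both), and EFB1 (-1.08). EFB1 had 1760, 2850 and 3116 in dhh1Δ, against 4160, 6652 and 5468 in WT. None of 28 initiation factors was called in edgeR (17 were lower at an unadjusted p under 0.05) or in DESeq2, with a median of -0.38. SUI1, the initiation factor that helps choose the start codon, was called lower with upper-quartile scaling, without dhh1Δ replicate 3 and without WT replicate 1, and was named for these calls; the poly(A)-binding protein PAB1 had 1310, 2225 and 2552 in dhh1Δ, against 2596, 4109 and 3830 in WT (-0.79, adjusted p = 0.0267). None of 72 ribosome biogenesis genes was called (1 was higher and 15 lower at an unadjusted p under 0.05), with a median of -0.17.

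Of 19 genes of decapping and 5′ to 3′ decay, DHH1 among them, 3 were called higher (7.42% of all genes were). DHH1 itself was the 1 called lower (2.01%). EDC1, an enhancer of decapping, had 331.7, 347.0 and 373.4 normalized CPM in dhh1Δ, against 44.1, 49.5 and 45.1 in WT (2.92, SE 0.14, adjusted p = 6.81e-08), and its input RNA changed by 2.98. EDC2, its paralog, had 102.0, 115.2 and 134.6 in dhh1Δ, against 27.1, 53.3 and 42.7 in WT (1.51, SE 0.22, adjusted p = 0.000447), with an RNA change of 1.34. The columns did not overlap for either gene, as for 408 of the 409 genes called higher. DCS1, named to complete the calls, was the other gene called higher (1.13, adjusted p = 0.000912), with an RNA change of 1.52. None of 9 Ccr4-Not genes was called (1 was lower at an unadjusted p under 0.05), with changes from -0.41 to 0.16: CDC39, the scaffold, had 249.1, 265.2 and 252.4 in dhh1Δ, against 249.2, 219.7 and 269.4 in WT, and the deadenylase gene CCR4 had a change of 0.04. None of 11 genes of nonsense-mediated decay, the Ski complex and ribosome rescue was called in edgeR (6 were lower at an unadjusted p under 0.05) or in DESeq2, with a median of -0.35. With upper-quartile scaling 2 were called lower, EBS1 and NMD2, and 1 was called lower at equal depth in all columns (NMD2), without dhh1Δ replicate 1 or WT replicate 2 (NMD2) and without dhh1Δ replicate 3 (EBS1), and both were named for these calls; the helicase gene NAM7 had a change of -0.85 (adjusted p = 0.00141). None of 33 proteasome genes was called (1 was higher and 1 lower at an unadjusted p under 0.05), with a median of 0.03. DESeq2 gave no call for the Ccr4-Not, proteasome, ribosome biogenesis, histone and mitochondrial ribosomal protein genes either.

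**Figure D4:**
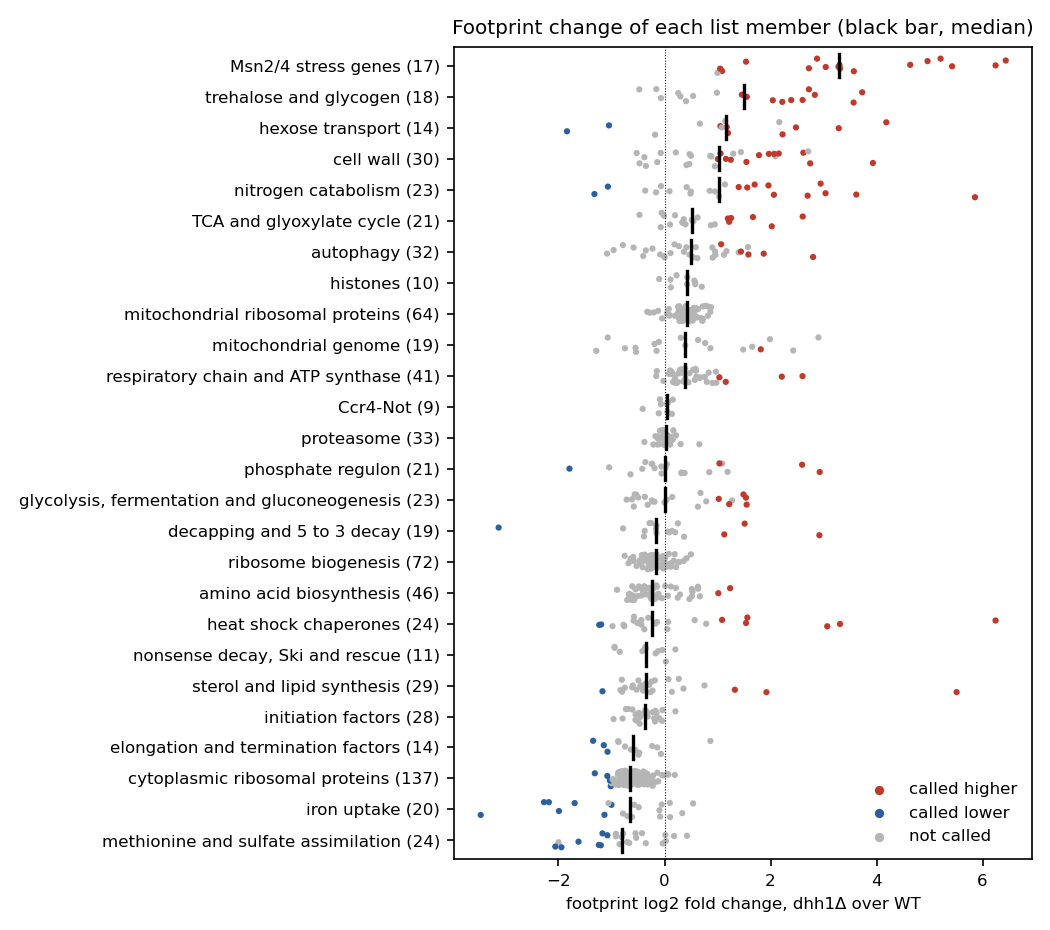
Footprint log2 fold change of dhh1Δ over WT for each member of 26 gene lists, ordered by the list median (black bar); the number tested is in brackets. Red and blue points are genes called higher and lower in dhh1Δ, grey points were not called; the stress list has a median of 3.30 and the methionine and sulfate list of -0.80.

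The heat shock list showed both directions. Of 24 chaperones 6 were called higher (7.42% of all genes were) and 2 lower (2.01%), with a median of -0.24. Of the rises, HSP26, HSP42, SSA4 and HSP104 are also counted in the stress list above. The falls, named to complete the calls, were SSA2 (-1.195) and HSC82 (-1.231). The rises were led by HSP26 and by 2 genes of the inducible Hsp70 family, SSA4, with 197.0, 197.4 and 180.0 normalized CPM in dhh1Δ, against 31.0, 17.9 and 9.95 in WT (3.31, SE 0.31), and SSA3, with 28.3, 31.5 and 23.6 in dhh1Δ, against 3.14, 3.84 and 2.79 in WT (3.07, SE 0.23). In the phosphate regulon 3 of 21 genes were called higher (7.42% of all genes were) and 1 lower (2.01%). The glycerophosphoinositol transporter GIT1 changed by 2.60 and PHM7 by 2.93. The acid phosphatase PHO12 changed by -1.79, with 24.3, 26.7 and 27.3 in dhh1Δ, against 54.3, 67.1 and 150.2 in WT. PHO12 shares sequence with PHO11. With the barcode number as a block 6 genes of the regulon were called higher and 2 lower. Without WT replicate 3, 5 were called higher, without dhh1Δ replicate 2 none was called lower, and without WT replicate 1, 2 were called lower. In amino acid synthesis outside methionine 2 of 46 genes were called higher (7.42% of all genes were), SER3 (1.24) and HIS5 (1.01), and none lower. HIS5 missed the call with upper-quartile scaling, with a minimum of 1 read, without dhh1Δ replicate 1 or 2 and without WT replicate 2 or 3, which left 1 gene of the list. None of 10 histone genes was called (4 were higher at an unadjusted p under 0.05), with a median of 0.43. In the mitochondrial genome 19 of 28 genes passed the read minimum, and AI2, an intron-encoded maturase, was called at 13.7, 8.89 and 5.42 normalized CPM in dhh1Δ, against 4.12, 2.18 and 1.59 in WT. AI2 missed the call with upper-quartile scaling, at equal depth in all columns, without dhh1Δ replicate 1 or 2 and without WT replicate 2 or 3, and its RNA change was 0.04. Between 0 and 2 genes of the mitochondrial genome were called higher over the alternatives.

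Translational efficiency, the footprint change relative to the RNA change, was tested as an interaction of strain with the kind of library over 5483 genes. It was called higher for 40 genes (0.73%) and lower for 3 (0.0547%). Of the 409 genes with more footprints 34 were among the 40, and of the 111 with fewer 2 were among the 3. All 40 had a footprint change above 0, 24 had an RNA change above 0, and 33 had a WT mean under 5 normalized footprint CPM. The same shares over all genes tested are not given here, so these counts are descriptions. The median RNA change of all genes tested in RNA was -0.03. DAL5 and SAG1 were among the 40, with efficiency changes of 4.13 (SE 0.32, adjusted p = 7.01e-06) and 3.03 (SE 0.20, adjusted p = 1.45e-06), as was SSA3 (2.50, adjusted p = 0.000272). The count of higher efficiency calls fell to 24 with the replicate number as a block, and to 19 without WT footprint replicate 3.

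Several of these genes were named after their values were seen. SKG6, which encodes a membrane protein found at sites of polarized growth, had 556.9, 1183 and 969.6 normalized footprint CPM in dhh1Δ, against 120.6, 193.9 and 178.3 in WT, while its input RNA had 91.0, 97.2 and 113.2 in dhh1Δ, against 124.6, 153.0 and 171.4 in WT. Its efficiency change was 3.05 (SE 0.35, adjusted p = 0.000272). HAC1, whose mRNA is spliced outside the nucleus in the unfolded protein response and is poorly translated until then, had 133.4, 137.8 and 136.6 footprint CPM in dhh1Δ, against 71.2, 55.4 and 53.2 in WT, with input RNA of 624.7, 359.7 and 484.9 in dhh1Δ, against 517.0, 1147 and 1058 in WT. Its efficiency change was 2.10 (SE 0.37, adjusted p = 0.00789), and its RNA columns overlapped between the strains. The 3 genes with lower efficiency were DHH1 (-1.32), STE7 beside it (-1.97) and TDH1. TDH1, a glyceraldehyde phosphate dehydrogenase gene, had 2210, 2473 and 2641 footprint CPM in dhh1Δ, against 1496, 1509 and 1570 in WT, and input RNA of 358.6, 247.8 and 334.1 in dhh1Δ, against 19.8, 47.3 and 24.3 in WT. TDH1 shares long stretches with TDH2 and TDH3, so its footprint and RNA values are uncertain where short reads match more than 1 of them.

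**Figure D5:**
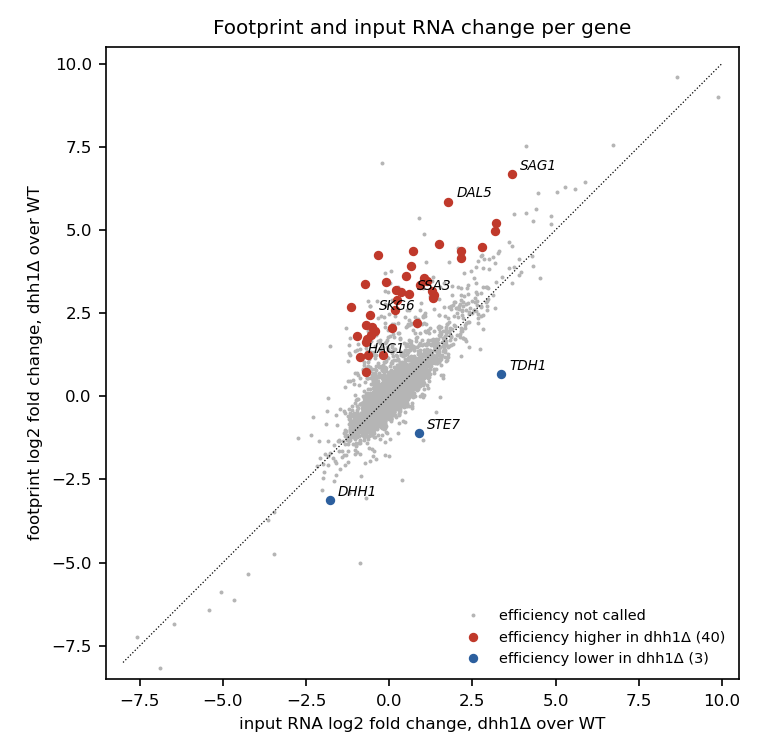
Footprint log2 fold change against input RNA log2 fold change, dhh1Δ over WT, 1 point per gene (5483 genes), with the line of equal change dotted. Red points are the 40 genes called higher and blue points the 3 called lower in translational efficiency.

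Features of the coding sequence went with small differences in the median. The 5296 nuclear genes outside the ribosomal proteins were divided into 5 groups of equal size by each feature. By coding length the median footprint change was 0.16 for the shortest genes (78 to 696 bases) and -0.07 for the longest (2148 to 14730 bases), with RNA medians of 0.16 and -0.06. By codon adaptation index, which is high when a gene uses the codons of the ribosomal protein genes, the median was 0.12 in the lowest group and -0.13 in the highest, with RNA medians of 0.08 and -0.08. Genes called higher had a median index of 0.204 and genes called lower of 0.223, against 0.196 over all. By WT footprint level per coding length the median was 0.37 in the lowest group and -0.14 in the highest. The RNA medians of these groups were 0.01 and -0.08. In the lowest group 16.8% of genes were called higher in footprints, and in the highest 3.97%. The WT level enters the fold change itself, so a gene that is low in WT has more room to be called higher, and these medians are descriptions without a test.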

How the data were processed

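The authors deposited whole-number counts per gene for footprints and input RNA, with no normalization. The submitters' notes name the R64 build, FastQC, HISAT2, featureCounts, STAR, RSEM 1.2.28 and DESeq2 without saying which made these tables, so the counter, its strand setting and its treatment of reads that match several genes are not given in the sources used here. The authors' barcode table gives the replicate number of each footprint column. No column of values was left without a sample or group. Each strain's 3 footprint columns, told apart by barcode within a pooled library, were used as replicates.

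Genes with at least 15 reads over the 6 columns were tested with edgeR 4.0.16 in R 4.3.3 (TMM, quasi-likelihood, Benjamini-Hochberg), on the dhh1Δ and WT columns only. SE is the fold change divided by the square root of F, an approximation. Same-numbered footprint columns share a barcode, with r of deviations of 0.541, 0.335 and 0.296. Columns of unlike number had r from -0.463 to 0.295. The highest of these was dhh1Δ replicate 3 with WT replicate 2, so the correlations do not settle the pair of replicate 3. The main test did not use the pairing, and the alternative with a block did. Input RNA samples did not pair (0.123, -0.71 and 0.351).

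Named genes are DHH1, the 12 largest rises and falls among called genes that averaged 100 counts or more and whose columns did not overlap, and for each list up to 3 called members with the largest change, or, where none was called, the 2 with the highest mean count. Members and lists were chosen with earlier results of these data known. Alternatives covered DESeq2 1.42.0, scaling by size factors or the upper quartile, read filters, cutoffs, thinning to equal depth, the fit with def1Δ, the block and each replicate left out. Motifs and coding features were read from RefSeq R64 with Biopython 1.88 in Python 3.11.15. Locus tags there matched 5449 of the 5512 genes tested. Scripts were tested on simulated data.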

Additional observations from a re-analysis of the deposited data

How the results depend on the processing

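With an adjusted p under 0.05 and no fold limit, 985 genes were higher and 835 lower in footprints, and 1149 were higher and 1011 lower in input RNA. Leaving out each replicate in turn gave 343 to 426 higher and 86 to 127 lower in footprints, 338 to 417 higher and 104 to 209 lower in input RNA, and 19 to 36 higher and 2 to 4 lower in translational efficiency. Fewer higher efficiency calls were made without dhh1Δ replicate 2 (22 without its footprints, 21 without its input RNA), without dhh1Δ replicate 3 (26 and 24), and without WT footprint replicate 2 (22) or 3 (19). With a replicate block, 24 genes were higher in translational efficiency, and 471 were higher and 124 lower in footprints. Of 1189 alternative values for the 85 named genes, 1137 kept direction and call, 52 kept the direction but missed the call, and none turned. The 52 fell on AI2, CIT3, DUR3, EFB1, HIS5, HXT8, MET14, MLS1, NDE2, PHO12, QCR10, RPL11A, RPL34B and SUL2, and the cause was not tested. Depth limits the a-cell genes in dhh1Δ and the alpha-cell genes in WT, where a few counts set the fold.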
